A study of Mus musculus with 98 samples.

Results

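The comparison described here is the level of mouse genes in livers of mice repopulated with human hepatocytes (Hu) against livers of mice repopulated with mouse hepatocytes (Mu). Its members are the 15 Hu and 12 Mu liver libraries, 27 of the 98 samples of the series, and in the liver count table only the rows with a mouse gene identifier, 19689 of them beside 17729 human rows. All libraries of both arms were used, and no measured value chose them. The series asks what part the hepatocyte clock has in the timing of daily rhythms, and sampled liver, muscle, the arcuate nucleus and the suprachiasmatic nucleus around the day. The question here is which mouse genes, and so which mouse cells and functions, had another level averaged over the day when the grafted hepatocytes were human.

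Every mouse in both arms was a male FRGN animal. The treatment notes give an age of 10 weeks, which is not taken here as the age at sampling. FRGN mice lack Fah, Rag2 and Il2rg and carry a non-obese diabetic background. Loss of Fah, the last enzyme of tyrosine breakdown, poisons hepatocytes with their own metabolites unless the drug nitisinone (NTBC) blocks the pathway upstream, so transplanted hepatocytes outgrow the host's. Loss of Rag2 and Il2rg removes T, B and natural killer cells, which lets a foreign graft survive. Hepatocytes were injected through the spleen, human ones for Hu and murine ones for Mu, and both arms were kept on nitisinone cycles, sulfamethoxazole with trimethoprim, dextrose in the water and a high-energy diet. Hu mice were selected for more than 70% human repopulation. Tissue was taken at ZT 2, 6, 10, 14, 18 and 22 (hours after lights on), with 2 or 3 Hu livers and 2 Mu livers at each time.

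The design limits what a difference can be ascribed to. Mouse RNA of a Hu liver comes from host cells, that is, remaining Fah-deficient hepatocytes and the host's own bile duct, vessel, stellate and blood cells. Mouse RNA of a Mu liver comes from grafted murine hepatocytes together with host cells. Species of the graft and the origin of the mouse hepatocytes therefore change together and cannot be told apart. The strain and sex of the murine donors are not given in the sources used here, and neither is a statement that each library is a separate animal, so the p-values measure the spread between these libraries. In a bulk liver, fewer cells of a type and less RNA per cell cannot be told apart either.

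As background, hepatocytes make most of the liver's RNA, secrete the plasma proteins and carry the metabolism of amino acids, fat, bile acids and drugs, with different enzymes near the portal and the central vein. The other cell types are bile duct cells (cholangiocytes), endothelium of the sinusoids and larger vessels, retinoid-storing stellate cells that turn into matrix-making myofibroblasts, and resident macrophages (Kupffer cells). In rodents, the pulses of growth hormone that differ between the sexes set many hepatocyte genes through STAT5.

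Mu livers held 97.1 to 118 M (mega) mouse counts (median 104.7). Hu livers held 7.70 to 87.9 M (median 42.1), with 2 libraries under 20 M, ZT 18 replicate 3 (7.70 M) and ZT 22 replicate 2. The first stood apart from the others, with the most human counts and the largest scaling factor (1.81). Human rows took 15.9 to 93.1% of all counts in Hu livers (median 58.7%). In Mu livers they took 0.00592 to 0.0204%, the background of reads set on the wrong species in that direction. The share of human reads that fell on mouse rows in Hu livers was not tested. Fah itself (chromosome 7, 84585159 to 84606722, minus strand, GRCm38), which checks the labels, reached 3.45, 16.6 and 34.2 CPM (counts scaled to an equal mouse total in each library) as the lowest, median and highest Hu liver, and 568, 678 and 941 CPM in Mu livers. All 15 Hu livers lay below all 12 Mu livers. Fah was still counted in every Hu liver, and all 8 tested genes of its pathway were lower without overlap. Its level alone therefore does not check the genotype.

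Levels are CPM of the mouse counts after TMM scaling, which sets a typical gene of the libraries equal, and differences are fitted log2 values, Hu minus Mu, averaged over a 24 h cosine in each arm. Of the 14977 mouse genes with enough counts, 11907 (79.5%) differed between arms at an adjusted p under 0.05 in edgeR's quasi-likelihood test. They split into 6365 genes higher in Hu (42.5%) and 5542 lower (37.0%). With a difference of more than 2-fold as well, 3650 genes (24.4%) were higher and 1636 (10.9%) were lower. Every Hu liver lay above every Mu liver for 1127 genes (7.52%) and below for 1869 (12.5%). Both criteria, more than 2-fold and no overlap, were met by 964 genes that were higher (6.44%) and 1180 that were lower (7.88%). The median difference over all tested genes was 0.07.

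How the libraries are scaled sets where the middle lies. TMM gave 53.5% of the called genes as higher in Hu and DESeq2's size factors (RLE) 52.8%. With the upper quartile the share was 64.2%, with the plain total of mouse counts 84.9%, and with the total of all counts, human rows included, 21.7%. Against TMM these 3 moved the median of all genes by 0.19, 0.67 and -0.76 on the log2 scale. Medians of gene lists are therefore also given relative to the median of all tested genes, for the main lists with the range of that value over the 5 scalings. The plain share of mouse counts shows the same effect: the 30 hepatocyte marker genes took a median of 13.5% of the mouse counts in Hu livers and 15.7% in Mu livers, although after TMM their summed level differed by 1.88-fold.

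**Figure D1:**
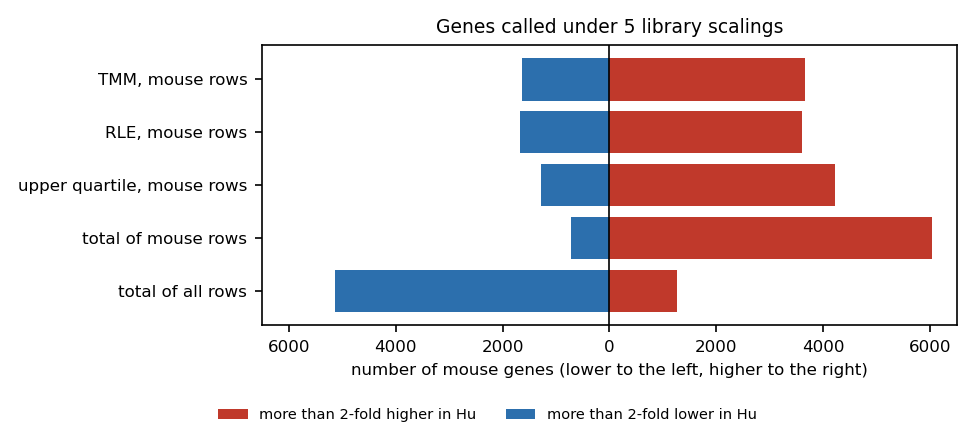
Number of mouse genes more than 2-fold higher (right) or lower (left) in Hu livers at an edgeR adjusted p under 0.05, for 5 ways to scale the libraries (rows). TMM gave 3650 higher and 1636 lower genes, the plain total of mouse rows 6040 and 710, and the total of all rows 1262 and 5128.

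The share of genes lower in Hu livers grew with abundance. Among the 96 genes with a mean over 1000 CPM, 58 (60.4%) were more than 2-fold lower and 4 higher, with a median difference of -1.28. Among the 1824 genes under 1 CPM, 107 were more than 2-fold lower and 1049 (57.5%) higher, with a median of 1.24. These classes rest on levels in the same livers that give the difference. Genes were also kept for testing by their counts in each arm, so a rare gene could enter through a high level in only a single arm. How much of the trend, and of the share of higher genes under 1 CPM, this choice sets was not tested. Genes that the other tissues also express had the smallest shares past 2-fold. For the 8674 tested genes with at least 5 CPM in the muscle, arcuate and suprachiasmatic libraries of Mu mice, the median difference was -0.12 (0.07 with the upper quartile and 0.55 with the plain total of mouse counts), and 11.7% were more than 2-fold higher and 8.67% lower. For the 1200 genes under 0.5 CPM in all 3 of those tissues, the median was 0.57 (-0.35 with the total of all rows), with 40.9% more than 2-fold higher and 25.3% lower. The tissue tables were normalized separately, so only this division and no level is compared across them.

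Hepatocyte markers were lower. Of 30 tested genes of the core hepatocyte list (plasma proteins, surface receptors and transcription factors of hepatocytes), 27 were lower, 0 were higher and 3 did not pass the test, with a median of -1.34 (-1.41 relative to all genes, -1.47 to -1.29 over the 5 scalings). Alb, the main plasma protein, had 6656, 45542 and 69409 CPM as the lowest, median and highest Hu liver and 65034, 80837 and 95951 CPM in Mu livers. For Alb, 13 of 15 Hu livers lay below all Mu livers, and the fitted difference was -0.78 ± 0.29 (SE; edgeR adjusted p = 0.0164). This call was lost without ZT 2, 6, 10 or 22 (-0.77, -0.82, -0.70 and -0.81) and with the plain total of mouse counts (-0.17). Apoa1, the main protein of high-density lipoprotein, differed by more, from 381, 4302 and 6555 CPM in Hu to 7561, 8993 and 18045 CPM in Mu livers, with no overlap (-1.29 ± 0.26). Trf, the plasma carrier of iron, did not pass the test (-0.30 ± 0.24). Serpina1c, a form of the elastase inhibitor alpha-1-antitrypsin, was the most reduced core gene at 4.89, 43.7 and 87.2 CPM against 2393, 3174 and 6127 CPM (-6.23 ± 0.30).

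The members of 1 gene family were reduced to very different extents. Serpina1a (-3.73 ± 0.24) and Serpina1b (-2.55 ± 0.24), close copies of Serpina1c, were also lower in all Hu livers, as was the most abundant family member, Serpina3k (-2.72 ± 0.27). Of 22 tested Serpina genes 16 were lower (list median -1.83, -1.90 relative to all genes) and 1 was higher, Serpina3i (0.77 ± 0.17, 11 of 15 Hu livers above all Mu livers, reversed to -0.11 with the total of all rows). Reads from such near-identical copies may be split between them by the counting, so single values of the Serpina1 genes are uncertain.

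Complement and coagulation genes, a list that shares members with the core list, were mostly lower too. Of 57 tested genes of complement and coagulation, 39 were lower and 12 higher (median -1.27, -1.34 relative to all genes). The fibrinogen chains Fga (-1.48 ± 0.25), Fgb (-1.3 ± 0.24) and Fgg (-1.81 ± 0.28), which belong to the core list too, were lower in all Hu livers, and C8b, a chain of the membrane attack complex, reached 1.44, 13.6 and 39.8 CPM against 234, 325 and 425 CPM (-4.42 ± 0.39). C3, the central complement protein, did not pass the test (0.13 ± 0.21), with Hu livers at 1149, 6202 and 9421 CPM around the Mu range of 4588 to 8124 CPM. Genes of this list that were higher include Plat, the tissue-type plasminogen activator, at 3.93, 15.3 and 76.3 CPM against 0.479, 1.05 and 3.83 CPM (4.13 ± 0.44), and A2m, a broad protease inhibitor, at 0.525, 2.40 and 23.5 against 0.0552, 0.112 and 0.301 CPM. Of 30 acute phase genes, 19 were lower and 4 higher (median -1.26, -1.33 relative to all genes). Saa2, a serum amyloid that IL-6 induces, was the most reduced of them (-4.0 ± 0.56), with 0, 0.444 and 7.67 CPM in Hu and 15.2, 18.7 and 68.1 CPM in Mu livers.

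**Figure D2:**
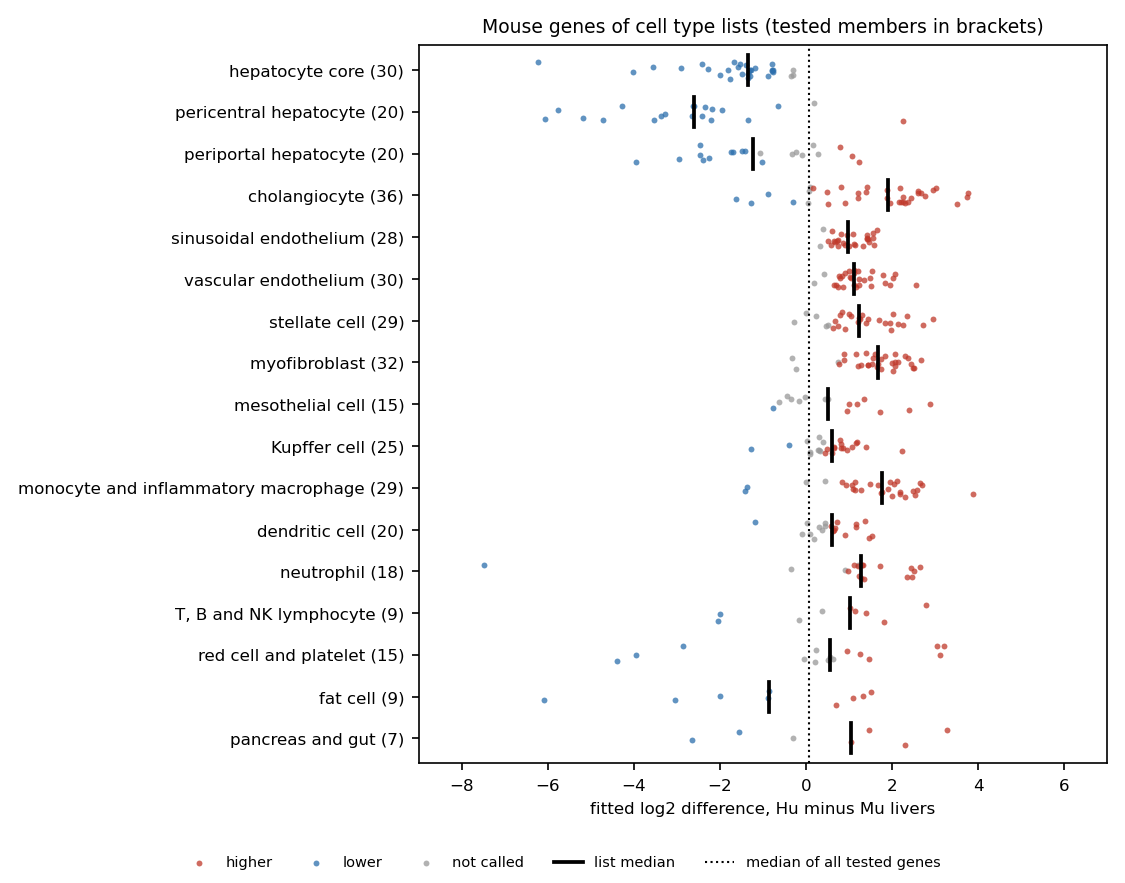
Fitted log2 difference (Hu minus Mu livers, horizontal axis) of every tested member of 17 cell type lists (rows, number of members in brackets), coloured by the edgeR call, with the median of each list as a bar and that of all 14977 genes as a dotted line. Hepatocyte lists lie left of the dotted line, and the lists of bile duct, vessel, stellate and myofibroblast genes lie right of it under TMM.

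Pericentral and periportal genes were both reduced. Of 20 tested pericentral genes 18 were lower and 1 higher (median -2.61, -2.67 relative to all genes), and of 20 periportal genes 11 were lower and 3 higher (median -1.23, -1.3 relative to all genes). The difference between the lists was not tested. Cyp2e1, a cytochrome P450 that handles ethanol, had 72.4, 252 and 754 CPM in Hu and 5327, 7546 and 8965 CPM in Mu livers (-4.72 ± 0.31). Glul, the glutamine synthetase of the innermost pericentral cells, had 112, 151 and 217 CPM against 1275, 1484 and 1742 CPM (-3.29 ± 0.12). Neither gene overlapped between arms, and Glul had the smaller spread within each arm. The amino acid carrier Slc1a4 was the 1 pericentral list member higher in Hu (2.27 ± 0.30, 12 of 15 livers above all Mu livers). Aldh1a1, a retinal dehydrogenase, was lower by much less (-0.66 ± 0.26), a call that was lost with the upper quartile (-0.49), with ZT as a factor (-0.67), without time terms (-0.51) and with the plain total of mouse counts (-0.05).

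On the periportal side the urea cycle enzyme Ass1 reached 93.3, 549 and 2136 CPM against 3243, 3814 and 4802 CPM (-2.46 ± 0.34), without overlap. Pigr, the receptor that carries IgA into bile, was the most reduced (-3.95 ± 0.44, 17.1, 74.2 and 307 against 1232, 1674 and 1856 CPM). Pck1, which controls gluconeogenesis, did not pass the test (-1.06 ± 0.52), and Hsd17b6, a steroid dehydrogenase, was higher (1.23 ± 0.31). Of 30 transcription factors that maintain hepatocyte genes 21 were lower and 5 higher, with a median of -0.61 that became 0.03 with the plain total of mouse counts (-0.67 relative to all genes). Hnf4a was at 43.3, 345 and 456 CPM against 426, 530 and 778 CPM (-0.78 ± 0.20), and Cebpa was lower without overlap (-1.62 ± 0.14). Gata6 was higher without overlap (1.24 ± 0.11).

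The whole pathway of Fah was lower. All 8 tested genes of tyrosine breakdown were lower and did not overlap between arms, with a median of -2.39 (-2.46 relative to all genes, -2.52 to -2.36 over the 5 scalings). Besides Fah (-5.31 ± 0.24), Hpd, the enzyme that nitisinone inhibits, reached 17.2, 135.2 and 536 CPM in Hu and 1952, 2474 and 3572 CPM in Mu livers (-4.02 ± 0.38). Tat, which starts tyrosine breakdown, was lower as well. No Hu liver reached the lowest Mu liver for any of these.

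Other amino acid enzymes moved the same way. Of 56 tested genes of amino acid breakdown and the urea cycle, 54 were lower and 1 higher (median -1.75, -1.82 relative to all genes). Cps1, the first enzyme of the urea cycle, was at 152, 876 and 2513 CPM against 1839, 3715 and 5943 CPM, with 12 of 15 Hu livers below all Mu livers (-1.76 ± 0.30). Bhmt and Mat1a, of methionine metabolism, were lower without overlap (-3.18 ± 0.28 and -1.91 ± 0.31). Gldc, which splits glycine, was the 1 higher gene, at 50.5, 589 and 768 CPM against 122, 279 and 390 CPM (0.77 ± 0.28, edgeR adjusted p = 0.0133), and limma-voom did not call it (0.40).

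Genes of fat and sterol synthesis were lower. Of 30 lipogenesis genes, 24 were lower and 2 higher (median -1.64, -1.70 relative to all genes). Scd1, the stearoyl-CoA desaturase, fell from 11177, 16838 and 34234 CPM in Mu to 197, 1639 and 3221 CPM in Hu livers (-3.66 ± 0.34, edgeR adjusted p = 1.48e-09). Fasn, the fatty acid synthase, was at 92.2, 175 and 498 against 360, 2426 and 6258 CPM, with a wide Mu range over the day (-3.39 ± 0.31). Thrsp, a lipogenic regulator, was the most reduced (-5.72 ± 0.35). Scd2, the desaturase form found mainly outside hepatocytes, went the other way, at 112, 363 and 637 against 36, 57.9 and 132 CPM (2.41 ± 0.23). Of 32 sterol genes 24 were lower and 2 higher (median -1.28, -1.35 relative to all genes), with the sterol desaturase Sc5d lowest (-3.46 ± 0.25).

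Genes of fat oxidation, glucose output and bile acids were lower too. Of 45 fatty acid oxidation genes, 35 were lower and 3 higher (median -1.10, -1.17 relative to all genes). Fabp1, which binds fatty acids in the hepatocyte, was at 16, 288 and 554 against 2859, 4067 and 6355 CPM (-3.99 ± 0.32), and the fasting hormone Fgf21 was higher (2.27 ± 0.35). Of 24 genes of gluconeogenesis and glycogen, 16 were lower and 4 higher (median -1.28, -1.35 relative to all genes). Of 33 bile acid genes, 23 were lower and 7 higher (median -1.40, -1.47 relative to all genes). Cyp7a1, the rate-limiting enzyme of bile acid synthesis, was at 0, 0.326 and 9.32 CPM in Hu and 2.29, 36.3 and 540 CPM in Mu livers, with 14 of 15 Hu livers below all Mu livers (-6.06 ± 0.62). The uptake carrier Slco1a1 was at 0.127, 1.12 and 9.02 against 599, 1114 and 1592 CPM (-8.59 ± 0.63). The export pumps of the multidrug type, Abcb1a (31.4, 66.9 and 96.0 against 2.32, 3.49 and 8.69 CPM) and Abcb1b (24.4, 108 and 546 against 3.57, 5.53 and 21 CPM), were higher without overlap (3.99 ± 0.23 and 4.63 ± 0.52).

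Genes of mitochondrial energy production, which all cells need, were lower as well. Of 82 nuclear genes of oxidative phosphorylation 77 were lower and 1 higher (median -1.10), and the 13 genes of the mitochondrial genome were all lower (median -1.12). Relative to all genes these medians were -1.16 and -1.19. The ATP synthase chain Atp5b was at 321, 1029 and 1316 against 1442, 1571 and 1852 CPM (-0.81 ± 0.16). Of 78 mitochondrial ribosomal proteins 75 were lower and 0 higher (median -0.81). Of 80 cytosolic ribosomal proteins 72 were lower and 0 higher, with a median of -0.42 that turned to 0.26 with the plain total of mouse counts. Of 39 proteasome subunits 37 were lower and 1 higher, with a median of -0.57 that turned to 0.09 in the same way. Relative to all genes, the last lists stood at -0.88, -0.48 and -0.64.

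**Figure D3:**
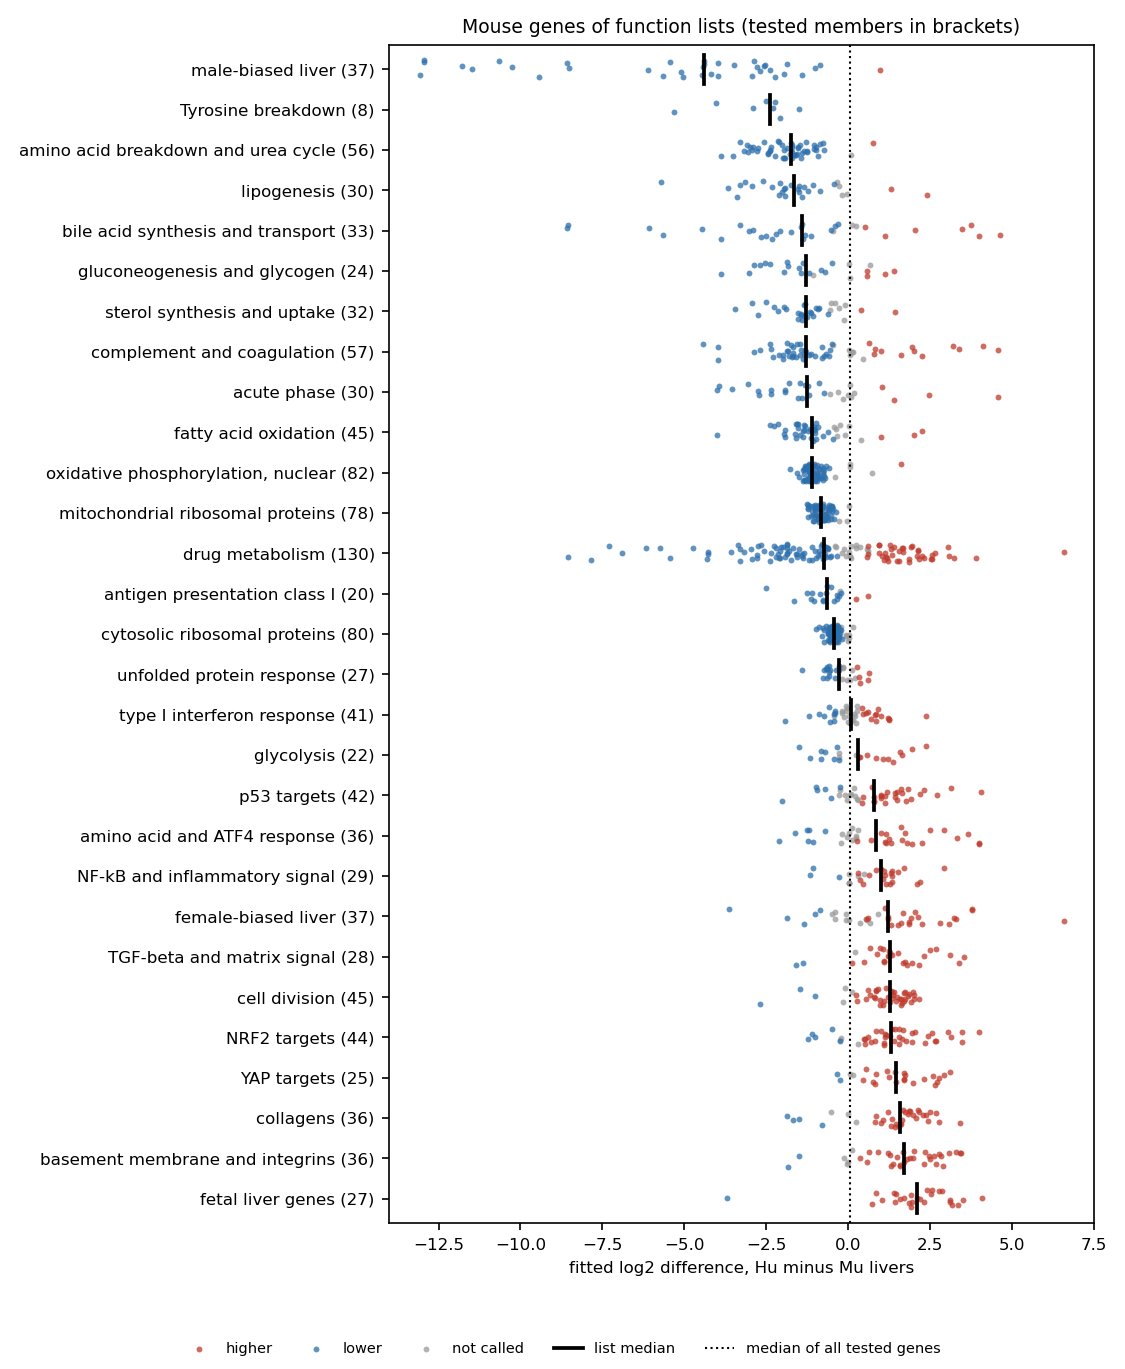
Fitted log2 difference (Hu minus Mu livers, horizontal axis) of every tested member of 29 function lists (rows, number of members in brackets), coloured by the edgeR call, with list medians as bars and the median of all genes as a dotted line. Lists are ordered by median, from male-biased genes at -4.40 to fetal liver genes at 2.09.

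Genes that differ between male and female livers moved apart. Of 37 tested genes that growth hormone pulses keep high in males, 36 were lower and 1 higher, with a median of -4.40 (-4.47 relative to all genes, -4.47 to -4.28 over the 5 scalings). Of 37 genes known to be higher in females, 22 were higher, 5 lower and 10 not called, with a median of 1.21 (1.15 relative to all genes, 1.04 to 1.15 over the scalings). The labels give all mice as male. The Y-linked genes Ddx3y, Eif2s3y, Kdm5d and Uty, chosen after their values were seen, were present in all 27 livers (lowest Hu and Mu levels of 58.6 and 18.4 CPM for Ddx3y, 39.7 and 39.7 for Eif2s3y, 20.1 and 13.6 for Kdm5d, 18.3 and 7.11 for Uty). Ddx3y, Kdm5d and Uty had positive fitted differences that reversed with the total of all rows. Livers of both arms hold cells of the male host, so presence of these genes does not give the sex of the murine donors.

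Among the male-biased genes, the major urinary proteins were lower throughout. Their sum was 4.24, 84.6 and 141.8 CPM in Hu and 5421, 12268 and 14719 CPM in Mu livers. All 20 tested Mup genes were lower without overlap. Mup3 was at 1.84, 11.6 and 30 CPM in Hu and 4150, 8604 and 9924 CPM in Mu livers (-9.43 ± 0.43). Mup20, a male pheromone, was at 1.45, 66.1 and 115 against 944, 1931 and 2562 CPM. Mup1 had at most 1 count in any Hu liver and 15.6, 32.9 and 49.5 CPM in Mu livers, so no fold is given for it. Mup genes are near-identical copies, and the division of reads among them is uncertain. Hsd3b5, a steroid dehydrogenase, and Elovl3, a fatty acid elongase, had at most 13 and 24 counts in any Hu liver, against Mu medians of 218 and 329 CPM. Cyp2d9, another male-biased enzyme, was less reduced (17.7, 386 and 625 against 1389, 1841 and 2449 CPM, -2.56 ± 0.32).

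Among the female-biased genes, Cyp2a4, a steroid hydroxylase, was at 225, 3122 and 4490 CPM in Hu and 129, 246 and 1086 CPM in Mu livers, with 12 of 15 Hu livers above all Mu livers (3.07 ± 0.43). Cux2, a repressor of male genes in female liver, was at 2.93, 9.06 and 46.0 against 0.643, 1.08 and 1.48 CPM without overlap (3.79 ± 0.40). Cd36, a fatty acid receptor that other cells also express, was higher without overlap (2.05 ± 0.17). Ntrk2, the receptor of a nerve growth factor, went the other way (-3.65 ± 0.30).

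In the growth hormone and IGF list 10 of 25 genes were higher and 8 lower, shares of 40% and 32% close to the 42.5 and 37.0% of all tested genes, with a median of 0.19 that became -0.65 with the total of all rows (0.12 relative to all genes). Ghr, the growth hormone receptor, was at 46.1, 138 and 240 against 559, 732 and 925 CPM (-2.43 ± 0.18), Igf1 at 130, 214 and 424 against 511, 731 and 987 CPM (-1.52 ± 0.16), and Igfals, which stabilises circulating IGF, at 1.22, 15.4 and 28.4 against 67.7, 119 and 162 CPM (-2.96 ± 0.25). None of the 3 overlapped between arms. Igfbp7, an IGF binding protein of vessels and stroma, was higher (1.3 ± 0.23). In the promoters (250 bases before to 50 after the start, RefSeq, GRCm38.p6), the STAT5 letters TTCNNNGAA, whose reverse complement is the same, were found in 2 of 29 male-biased and 4 of 28 female-biased genes with an entry, 6.90 and 14.3%. The share among all 11548 tested genes with an entry was 8.37%. Bcl6, a STAT5 antagonist of the male-biased list chosen for its matches after its values were seen, had 3 of them in the stretch from 180 to 71 bases upstream (chr16:23981354-23981463, minus strand), capitals marking the letters. Bcl6 was at 6.54, 12.2 and 28.2 against 10.5, 29.6 and 152 CPM (-1.94 ± 0.39), with overlap.
Bcl6: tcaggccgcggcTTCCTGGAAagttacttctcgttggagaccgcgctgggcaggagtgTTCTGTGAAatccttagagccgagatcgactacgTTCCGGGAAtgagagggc

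Genes of fetal liver and of oxidant defence were higher. Of 27 tested genes of fetal liver and regeneration, a list that also holds genes of other liver cells such as Dcn of stellate cells, 26 were higher and 1 lower, with a median of 2.09 (2.03 relative to all genes, 1.88 to 2.14 over the scalings). Afp, the fetal counterpart of albumin, was at 33.3, 207 and 1990 CPM in Hu and 2.52, 8.11 and 260 CPM in Mu livers (4.08 ± 0.77, edgeR adjusted p = 3.74e-05). Only 5 of 15 Hu livers lay above all Mu livers, and the highest Mu liver reached 260 CPM. Krt8, a keratin of simple epithelia, was at 172, 400 and 917 against 163, 230 and 273 CPM, and Lpl, the lipoprotein lipase that the adult hepatocyte shuts off, at 209, 421 and 731 against 51.9, 116 and 211 CPM (1.04 ± 0.17 and 1.91 ± 0.19). Tff3, a secreted trefoil peptide, was the 1 lower gene (-3.71 ± 0.33).

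NRF2, the transcription factor of oxidant and electrophile defence, binds antioxidant response elements. Of 44 tested NRF2 targets, 36 were higher, 5 lower and 3 not called (median 1.3, 1.24 relative to all genes, 1.18 to 1.27 over the scalings). Slc7a11, the cystine carrier that feeds glutathione synthesis, was at 92.1, 910 and 1272 CPM in Hu and 12.2, 31.8 and 130 CPM in Mu livers, with 14 of 15 Hu livers above all Mu livers (3.98 ± 0.44). Gstm1, a glutathione transferase, was at 974, 8171 and 11697 against 1483, 2141 and 3396 CPM (1.67 ± 0.27), and Cyp2a5, a P450 that liver injury induces, at 558, 8669 and 12250 against 512, 984 and 3500 CPM (2.56 ± 0.39). The lowest Hu value of Gstm1 lay below all Mu livers. The ferritin chains split, with Fth1 higher (0.86 ± 0.20) and Ftl1 lower (-0.48 ± 0.15, reversed to 0.16 with the plain total of mouse counts), and the malic enzyme Me1 was the most reduced member (-1.22 ± 0.21). Summed over the list, the Hu livers had 8611, 46463 and 61245 CPM and the Mu livers 16741, 20086 and 25964 CPM. The lowest was Hu ZT 18 replicate 3, the library with the most human counts, where the hepatocyte core list was also lowest, at 14489 CPM.

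The letters of the antioxidant response element, TGACNNNGC on either strand, stood in the promoters of 11 of 39 NRF2 targets with an entry (28.2%) and in 16.6% of all tested genes with one. Of those 11 genes 8 were higher and 2 lower, beside 36 and 5 of all 44 tested targets. Whether the letters go with the direction was not tested. Ugdh, which makes the sugar acid for glucuronides, and Txnrd1, the thioredoxin reductase, are shown for their matches upstream of the start, chosen after their values were seen. Ugdh was at 116, 1066 and 1334 against 159, 210 and 349 CPM (1.94 ± 0.27), and Txnrd1 at 154, 694 and 874 against 167, 248 and 275 CPM (1.33 ± 0.20), with 13 of 15 Hu livers above all Mu livers for each. The stretches run 140 to 71 bases upstream for Ugdh (chr5:65435913-65435982, minus strand) and 115 to 61 for Txnrd1 (chr10:82859091-82859145, plus strand). Capitals mark the letters.
Ugdh: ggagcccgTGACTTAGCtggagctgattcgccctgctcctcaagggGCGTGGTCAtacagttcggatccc
Txnrd1: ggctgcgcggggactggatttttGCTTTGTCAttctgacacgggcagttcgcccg

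Drug metabolism genes were lower more often than higher. Of 130 tested genes of cytochrome P450, conjugation and related enzymes, 75 were lower and 41 higher, 55 and 35 of them by more than 2-fold, with a median of -0.74 (-0.81 relative to all genes). The largest fall was that of Sult2a8, a bile acid sulfotransferase (0.144, 1.65 and 4.99 against 421, 726 and 892 CPM, -8.54 ± 0.39). Cyp3a11, the main xenobiotic P450, was lower with a wide Hu range of 118, 658 and 4242 against 3797, 4628 and 6054 CPM (-1.91 ± 0.47). P450, glutathione transferase and sulfotransferase genes include close copies, so single members share the same uncertainty as the Serpina1 genes.

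**Figure D4:**
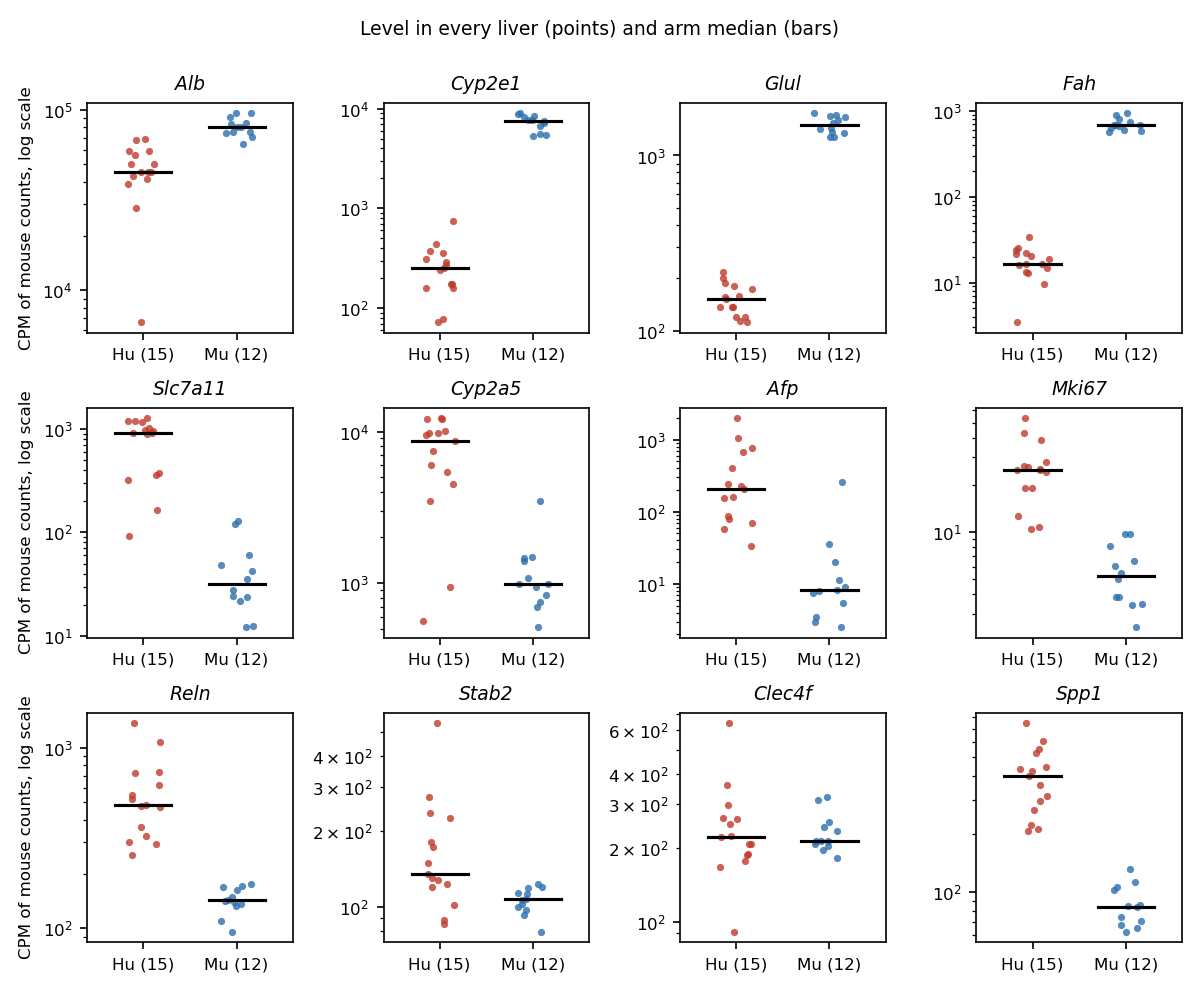
CPM of mouse counts after TMM (log scale) of 12 mouse genes in each of 15 Hu and 12 Mu livers (points), with arm medians as bars. Cyp2e1, Glul and Fah do not overlap between arms, Slc7a11, Cyp2a5 and Afp are higher in most Hu livers, and the Mu range of Clec4f lies within its Hu range.

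Most genes of the cell division and p53 lists were also higher. Of 45 cell division genes 39 were higher and 3 lower (median 1.29, 1.22 relative to all genes). Their summed level overlapped between arms, at 232, 369 and 614 CPM in Hu and 199, 259 and 522 CPM in Mu livers. Mki67, a protein of dividing cells, was at 10.4, 25.1 and 53.4 CPM against 2.47, 5.27 and 9.74 CPM, without overlap (2.17 ± 0.27). Pcna, the clamp of DNA replication, was higher by less (0.84 ± 0.10), whereas Mcm10 (-2.69 ± 0.16) and the thymidine kinase Tk1 (-1.45 ± 0.11) were lower. Of 42 p53 targets 26 were higher and 6 lower (61.9 and 14.3%, beside 42.5 and 37.0% of all tested genes). Their median was 0.80 (0.73 relative to all genes). Psrc1, a microtubule protein, rose most (3.16, 14.4 and 32.7 against 0.236, 0.527 and 3.64 CPM, 4.06 ± 0.38), and Trp53inp1, a cofactor of p53, was at 77.0, 359 and 547 against 61.9, 100 and 170 CPM (1.84 ± 0.23). The cell cycle inhibitor Cdkn1a and the p53 antagonist Mdm2, named after their values were seen, were higher as well (1.93 ± 0.26 and 0.78 ± 0.10, each with 14 of 15 Hu livers above all Mu livers).

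Of 36 genes of the amino acid response that ATF4 drives, 20 were higher and 7 lower. These are 55.6 and 19.4%, beside 42.5 and 37.0% of all tested genes. Their median was 0.86 (0.79 relative to all genes). Their sum did not follow the median, at 910, 2657 and 3577 CPM in Hu and 2266, 2812 and 3672 CPM in Mu livers. For this sum 5 Hu livers lay below all Mu livers and 0 above. Psat1, of serine synthesis, was at 6.68, 21 and 49.0 against 0.561, 1.23 and 6.56 CPM (4.0 ± 0.36). The lower members Cbs and Cth, which turn homocysteine into cysteine, are hepatocyte enzymes too (-2.11 ± 0.26 and -1.62 ± 0.27). Chaperone genes of the stress response went the other way under TMM. Of 27 genes of the unfolded protein response 15 were lower and 5 higher, with a median of -0.28 that became 0.38 with the plain total of mouse counts (-0.35 relative to all genes). Hspa5, the main chaperone of the endoplasmic reticulum, was at 506, 673 and 1453 against 540, 890 and 1860 CPM (-0.38 ± 0.15), reversed to 0.29 with the plain total of mouse counts and no longer called without Mu ZT 18 replicate 2 (-0.31).

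Bile duct markers had the highest median of the cell type lists. Of 36 tested cholangiocyte genes 29 were higher, 4 lower and 3 not called (median 1.92, 1.85 relative to all genes, 1.71 to 1.96 over the scalings). For 15 of the 36 every Hu liver lay above every Mu liver, beside 7.52% of all tested genes. Spp1, osteopontin, was at 207, 398 and 748 CPM in Hu and 62.1, 84.1 and 132 CPM in Mu livers (2.19 ± 0.21). Prom1, a surface protein of duct and progenitor cells, was at 21.4, 34.0 and 80.2 against 1.23, 2.23 and 7.07 CPM (3.77 ± 0.30). The defining genes named next were chosen after their values were seen. The keratin Krt19 was at 2.07, 7.98 and 35.0 against 1.31, 2.11 and 7.71 CPM and the adhesion protein Epcam at 6.35, 13.3 and 35.1 against 1.85, 3.15 and 6.49 CPM (1.88 ± 0.35 and 2.26 ± 0.26). Ambp and Cp, which hepatocytes also secrete in large amounts, were at -0.88 ± 0.19 (lower) and 0.08 ± 0.16 (not called). With both, the list summed to 3694, 5016 and 6087 CPM in Hu and 4252, 4763 and 5514 CPM in Mu livers, which overlap. Without these 2, left out with their values known, the summed level was 1552, 1918 and 2896 CPM in Hu livers. In Mu livers it was then 848, 980 and 1248 CPM, with no overlap.

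Vessel genes were raised by a more even amount. Of 28 sinusoidal endothelial genes 26 were higher and 0 lower (median 0.98, 0.92 relative to all genes, 0.73 to 1.0 over the scalings), and of 30 vascular genes 28 were higher and 0 lower (median 1.12, 1.06 relative to all genes). With the total of all rows the medians were 0.03 and 0.20. The scavenger receptor Stab2 was at 85.3, 135.2 and 542 against 79.2, 107 and 123 CPM (0.75 ± 0.21, reversed to -0.23 with the total of all rows), and its relative Stab1 at 117, 180 and 537 against 82.3, 102 and 112 CPM (1.12 ± 0.17). Ptprb, an endothelial phosphatase, was at 119, 253 and 1065 against 61.7, 127 and 193 CPM (1.33 ± 0.22). The junction protein Cdh5 was at 45.8, 73.1 and 249 against 31.8, 39.6 and 50.6 CPM and Eng, a TGF-beta co-receptor, at 89.3, 208 and 818 against 97.9, 115 and 131 CPM (1.12 ± 0.18 and 1.24 ± 0.24). For Eng, 13 Hu livers lay above all Mu livers and 1 below.

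Stellate cell and myofibroblast genes were higher, with exceptions among the abundant ones. Of 29 stellate cell genes 24 were higher and 0 lower (median 1.23, 1.17 relative to all genes), and of 32 myofibroblast genes 29 were higher and 0 lower (median 1.66, 1.6 relative to all genes). Reln, a secreted stellate cell protein, was the most abundant of the genes that were more than 2-fold higher without overlap, at 255, 481 and 1370 CPM against 95.6, 143 and 176 CPM (1.99 ± 0.22). Dcn, decorin, was at 166, 409 and 1996 against 182, 231 and 280 CPM (1.45 ± 0.29). Cxcl12 (0.23 ± 0.23) and Ecm1 (0.52 ± 0.30) did not pass the test. Sparc, a matrix glycoprotein, was higher without overlap (1.53 ± 0.20), and the collagen cross-linking enzyme Lox rose most among the myofibroblast genes (2.69 ± 0.42). Fn1, fibronectin, which hepatocytes also make, was not called (-0.33 ± 0.17).

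The macrophage lists differed from each other in their defining genes. Of 25 Kupffer cell genes 15 were higher, 2 lower and 8 not called. The shares higher and lower were 60 and 8%, beside 42.5 and 37.0% of all tested genes. Their median of 0.61 (0.55 relative to all genes, 0.38 to 0.60 over the scalings) became -0.32 with the total of all rows. Clec4f, the lectin that defines Kupffer cells, was at 90.9, 222 and 643 CPM in Hu and 183, 213 and 322 CPM in Mu livers (0.09 ± 0.17, edgeR adjusted p = 0.635). Cd5l was at 198, 303 and 909 against 208, 261 and 449 CPM (0.31 ± 0.18, not called). Slc40a1, the iron exporter, and Hmox1, which breaks down haem, were higher (0.85 ± 0.10 and 1.39 ± 0.14), and the sterol sensor Nr1h3 was lower (-1.27 ± 0.08).

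Of 29 genes of monocytes and inflammatory macrophages 25 were higher and 2 lower (median 1.77, 1.71 relative to all genes, 1.54 to 1.78 over the scalings). Cx3cr1, the fractalkine receptor of monocytes, was at 12, 27.2 and 73.2 against 1.26, 2.23 and 4.21 CPM (3.88 ± 0.30). Its ligand Cx3cl1 was at 4.96, 15 and 47.0 against 1.27, 2.05 and 3.59 CPM (2.92 ± 0.35). Lyz2, lysozyme, was at 190, 313 and 827 against 70.1, 117 and 188 CPM (1.74 ± 0.22). None of these overlapped between arms. Trem2 and Gpnmb, defining genes of lipid-laden macrophages chosen after their values were seen, were higher as well (2.57 ± 0.30 and 2.49 ± 0.41). Mpeg1, which all macrophages express, was at 195, 321 and 773 against 304, 403 and 503 CPM (-0.01 ± 0.16, not called). The 2 lower members were Apoe, also a major hepatocyte product (-1.37 ± 0.19), and Fabp5 (-1.43 ± 0.24). With Apoe, by far its most abundant member, the list summed to 8140, 10345 and 14048 CPM in Hu and 17641, 20800 and 34053 CPM in Mu livers, with all Hu livers below all Mu livers, the opposite of the direction of the median. Without Apoe the summed level was 1567, 2172 and 4060 CPM against 826, 1095 and 1513 CPM, with no overlap.

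Most neutrophil genes were higher. Of 18 neutrophil genes 14 were higher (median 1.29, 1.22 relative to all genes) and 1 lower, namely Wfdc21, which stood at 281, 377 and 838 CPM in Mu livers and far above any other gene of that list there (-7.48 ± 0.62). With it the list summed to 62.4, 100.2 and 372 CPM in Hu and 308, 419 and 928 CPM in Mu livers. Without it the summed level was 45.8, 98 and 372 CPM in Hu and 17.9, 25.9 and 89.4 CPM in Mu livers. Lcn2, which injured hepatocytes also make, was its largest part in Hu livers (19.7, 64.8 and 305 against 6.24, 12.6 and 43.0 CPM, 2.46 ± 0.39). Of 20 dendritic cell genes 11 were higher and 1 lower (55 and 5%, beside 42.5 and 37.0% of all tested genes). Their median of 0.61 became -0.26 with the total of all rows (0.54 relative to all genes). Their sum was 438, 835 and 1575 CPM in Hu and 506, 739 and 1882 CPM in Mu livers. Only 9 of 24 lymphocyte genes in the table had enough counts to test. Of these 9 genes 5 were higher and 2 lower (55.6 and 22.2%, beside 42.5 and 37.0% of all tested genes). Their median of 1.03 became 0.14 with the total of all rows (0.97 relative to all genes). Their summed level was 9.42, 19.5 and 38.2 CPM in Hu and 11.2, 13.5 and 20.0 CPM in Mu livers. Il2rg was not called (1.35, 1.94 and 5.68 against 1.24, 2.31 and 3.82 CPM). Rag2 was low in both arms (0.550, 1.19 and 1.85 against 0.124, 0.300 and 0.475 CPM). It was nevertheless called higher in Hu, by a fitted 2.05, with every Hu liver above every Mu liver. Which exons the deletions remove is not given in the sources used here, so neither gene checks the genotype.

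Markers of tissues other than liver were few. Of 20 pancreas and gut genes 7 were tested, of which Vil1, villin of the brush border, rose most (1.67, 7.56 and 37.4 against 0.739, 1.01 and 1.66 CPM, 3.28 ± 0.39). Of 9 tested fat cell genes 4 were higher and 5 lower (44.4 and 55.6%, beside 42.5 and 37.0% of all tested genes). The lowest, Car3, stood at 0.934, 38.0 and 278 CPM against 1288, 2781 and 4023 CPM (-6.08 ± 0.61), and without it the list summed to 58.9, 82.9 and 119 CPM in Hu and 66.6, 89.8 and 134 CPM in Mu livers. Of 15 mesothelial genes 7 were higher and 1 lower (46.7 and 6.67%, beside 42.5 and 37.0% of all tested genes). Their median of 0.51 became -0.28 with the total of all rows (0.45 relative to all genes). The summed mesothelial level had a median of 1645 CPM in Hu and 1919 CPM in Mu livers, with 8 Hu livers below all Mu livers and 0 above. Of 15 tested red cell and platelet genes 6 were higher and 3 lower (40 and 20%), with differences from -4.40 to 3.22. Their median of 0.56 became -0.13 with the total of all rows (0.49 relative to all genes). Their summed level was 62.9, 247 and 542 CPM in Hu and 352, 455 and 733 CPM in Mu livers. For this sum 12 Hu livers lay below all Mu livers and 0 above. Within the list, the haemoglobin chains Hba-a1 and Hbb-bs did not pass the test (0.21 ± 0.39 and 0.51 ± 0.39).

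**Figure D5:**
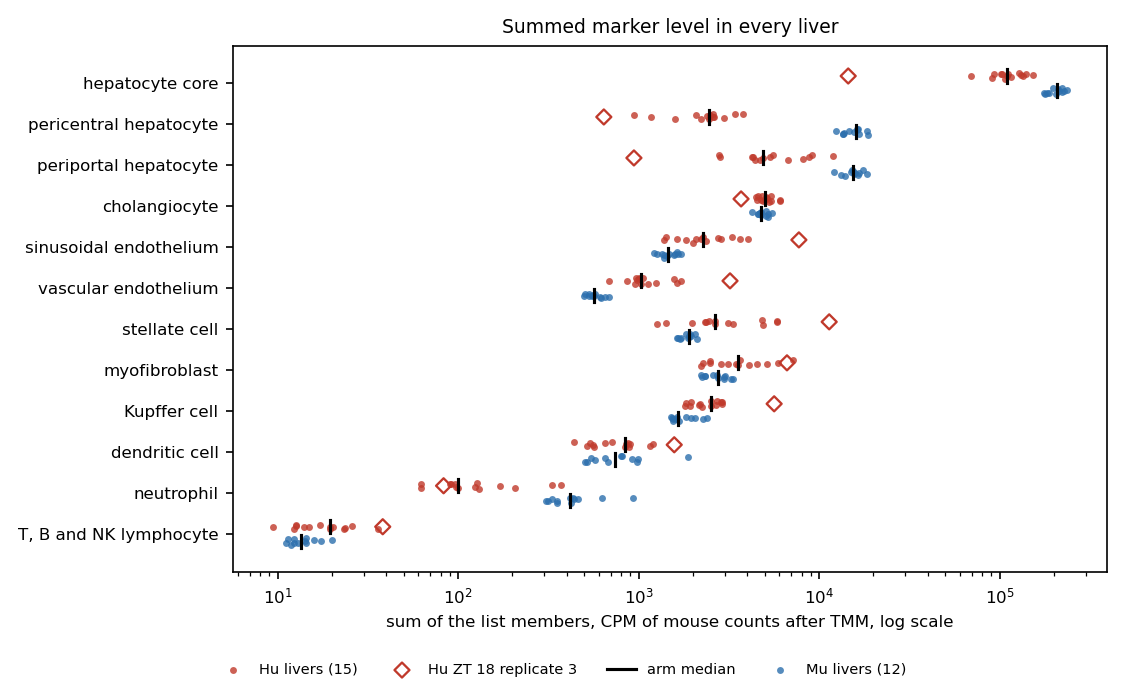
Sum of the tested members of 12 cell type lists in each of 15 Hu and 12 Mu livers (points), in CPM of mouse counts after TMM on a log scale, with arm medians as bars and Hu ZT 18 replicate 3 as open diamonds. That liver is the lowest of all for the hepatocyte lists and the highest for the sinusoidal, vascular, stellate and Kupffer lists. The cholangiocyte and neutrophil sums shown include Ambp, Cp and Wfdc21.

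Matrix genes were higher as a group. Of 36 tested collagens 29 were higher and 4 lower (median 1.6, 1.53 relative to all genes), and of 36 genes of the basement membrane and its integrins 30 were higher and 2 lower (median 1.70, 1.63 relative to all genes). Col4a1, a chain of basement membranes, was at 86.5, 225 and 481 against 46.8, 61.6 and 101 CPM (1.89 ± 0.25). Col4a5 was the collagen that rose most, at 21.5, 32.6 and 47.7 against 1.20, 2.92 and 6.0 CPM (3.40 ± 0.19). Nid1, nidogen, which links laminin to type IV collagen, was at 196, 420 and 511 against 23.7, 35.7 and 63.2 CPM (3.30 ± 0.19). Col3a1, of fibrillar matrix, was higher with overlap (1.75 ± 0.36). The most abundant collagen of the Mu livers, Col18a1, which hepatocytes make, was lower without overlap (86.2, 505 and 798 against 1133, 1522 and 1716 CPM, -1.50 ± 0.20). With it, the summed collagen level was 1357, 2019 and 4294 CPM in Hu and 1786, 2184 and 2465 CPM in Mu livers, so the sum and the median of the list differ in direction. Of 31 matrix proteases and inhibitors 26 were higher and 4 lower (median 1.27, 1.20 relative to all genes), while the abundant cathepsin Ctsb was not called (0.19 ± 0.12). Their summed level had a median of 2247 CPM in Hu and 2356 CPM in Mu livers.

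Most signalling genes that act on matrix cells were higher too. Of 28 TGF-beta genes 25 were higher and 2 lower (median 1.27, 1.20 relative to all genes). The receptor Tgfbr2 was at 89.4, 164 and 216 against 31.9, 56.4 and 68.8 CPM (1.53 ± 0.13). The activin chains split, with Inhbb higher (3.55 ± 0.23) and Inhba lower (-1.59 ± 0.24). Of 28 Notch and hedgehog genes 22 were higher and 4 lower (median 1.07, 1.0 relative to all genes), among them the receptor Notch1 (1.13 ± 0.18), the hedgehog antagonist Hhip (3.04 ± 0.47) and, lower, Hes6 (-2.27 ± 0.16). Of 45 semaphorin, plexin and ephrin genes 34 were higher and 7 lower (median 1.33, 1.26 relative to all genes), although their sum was higher in Mu livers (median 1794 CPM, 1380 in Hu). Of 26 genes of Wnt and its receptors 18 were higher and 4 lower (median 1.15, 1.08 relative to all genes). Of 29 NF-kB genes 20 were higher and 3 lower (median 1.02, 0.95 relative to all genes), with Vcam1, an adhesion molecule, at 37.8, 65.6 and 169 against 21.9, 26.3 and 55.7 CPM (1.35 ± 0.17).

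YAP and TAZ, the effectors of the Hippo pathway, act through TEAD factors. Of 25 tested YAP targets 21 were higher and 2 lower (median 1.46, 1.39 relative to all genes, 1.32 to 1.46 over the scalings). Tgfb2 rose most (2.69, 10.1 and 15.7 against 0.625, 1.03 and 1.94 CPM, 3.12 ± 0.26), and Axl, a receptor kinase, was at 74.0, 123 and 358 against 51.4, 59.9 and 78.7 CPM (1.26 ± 0.17). The TEAD letters GGAATG, on either strand, were in the promoters of 8 of 18 YAP targets with an entry (44.4%) and in 14.8% of all tested genes with one. All 8 were higher, beside 21 of all 25 tested targets, and a link of the letters to the direction was not tested. Ankrd1, a muscle-type nuclear adaptor, and Ajuba, a junction protein, are shown with Axl for their matches, chosen after their values were seen, at 1.68, 3.88 and 18.9 against 0.360, 0.763 and 1.29 CPM and 21, 37.3 and 51.3 against 6.64, 8.33 and 14.8 CPM (2.94 ± 0.31 and 1.98 ± 0.14). The stretches run 220 to 106 bases upstream for Ankrd1 (chr19:36119950-36120064), 200 to 146 for Ajuba (chr14:54577807-54577861) and 245 to 191 for Axl (chr7:25788924-25788978), all on the minus strand, with the letters in capitals.
Ankrd1: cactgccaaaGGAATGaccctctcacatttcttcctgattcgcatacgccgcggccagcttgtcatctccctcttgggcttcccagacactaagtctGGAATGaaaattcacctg
Ajuba: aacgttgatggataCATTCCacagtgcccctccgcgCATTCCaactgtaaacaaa
Axl: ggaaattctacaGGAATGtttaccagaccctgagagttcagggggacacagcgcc
Of the core hepatocyte genes with an entry, 1 of 25 held the HNF1 motif and 0 of 25 the HNF4A letters CAAAGTCCA, against 0.442 and 0.649% of all tested genes.

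Genes of epithelial junctions and keratins moved both ways. Krt20, a keratin of gut and urinary epithelium, was at 1.05, 10.2 and 116 CPM in Hu and 0, 0.0854 and 1.37 CPM in Mu livers (6.43 ± 0.79, 14 of 15 Hu livers above all Mu livers). Cldn7, a tight junction protein that the duct list holds too, was higher without overlap (2.78 ± 0.22), while the hepatocyte gap junction proteins Gjb1 and Gjb2 were lower without overlap (-1.51 ± 0.21 and -1.88 ± 0.24). Of 38 junction and keratin genes 21 were higher and 11 lower (55.3 and 28.9%, beside 42.5 and 37.0% of all tested genes). Their median of 0.50 became -0.28 with the total of all rows (0.43 relative to all genes).

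Immune genes that most cells express were lower or mixed. Of 20 genes of class I antigen presentation 17 were lower and 2 higher, with a median of -0.64 that became 0.03 with the plain total of mouse counts (-0.71 relative to all genes). B2m, the common light chain, was at 611, 886 and 1131 against 1778, 2037 and 2589 CPM (-1.24 ± 0.10), and the secreted H2-Q10, a hepatocyte product, fell most (-2.51 ± 0.29). Of 41 interferon-induced genes 14 were higher and 10 lower (34.1 and 24.4%, beside 42.5 and 37.0% of all tested genes). Their median of 0.10, beside 0.07 for all genes, became -0.67 with the total of all rows. Within this list Mx1, an antiviral GTPase, was higher without overlap (9.78, 30.8 and 113 against 2.96, 5.55 and 9.39 CPM, 2.38 ± 0.24) and Ifi27 lower without overlap (27.9, 44.0 and 73.3 against 140, 164 and 239 CPM, -1.91 ± 0.15).

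By size, the differences had a different make-up at the ends. Among genes with no overlap and a mean of at least 10 CPM in the higher arm, the 10 largest falls were 8 Mup genes, Hsd3b5 and Elovl3, all with a Hu median under 0.2 CPM. The largest rises included Cacna1b, Akr1b7, Abcb1b, Plat, 5330417C22Rik, Myo5c, Psat1, Abcb1a and Cx3cr1. Cacna1b, a neuronal calcium channel, led them at 2.30, 10.2 and 19.5 CPM against 0, 0.0712 and 0.199 CPM (6.98 ± 0.42), and Akr1b7, an aldehyde reductase, was at 3.74, 13.0 and 27.8 against 0.192, 0.360 and 1.26 CPM (5.01 ± 0.30). By abundance, the 10 leading lower genes were Apoe, Scd1, Serpina3k, Apoa1, Mup3, Ttr, Apoa2, Cyp2e1, Pzp and Fga. The 10 leading higher genes were Reln, Myh9, Spp1, Sparc, Lyz2, App, Nid1, Cd36, Sptan1 and Rtn4. The cytoskeletal genes Myh9 and Sptan1 had narrow ranges in both arms (332, 488 and 615 against 138, 201 and 278 CPM, and 275, 323 and 363 against 100, 129 and 157 CPM).

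Without Hu ZT 18 replicate 3 and ZT 22 replicate 2, the libraries under 20 M mouse counts, 11754 genes differed and 3288 were more than 2-fold higher and 1505 lower. The median of the core hepatocyte list was then -1.21, of the cholangiocyte list 1.68, of the sinusoidal list 0.79, of the stellate list 1.02 and of the Kupffer list 0.35. The core clock list had 12 of 19 genes lower and 2 higher, with a median of -0.53 that became 0.10 with the plain total of mouse counts (-0.60 relative to all genes).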

How the data were processed

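RNA-seq of 15 Hu and 12 Mu livers was used. The deposited liver table holds raw read counts per gene for mouse and human genes, made by the authors. STAR and the builds GRCm38, mm10, GRCh38, hg38 and hg19 are named in the submitters' processing notes, and how reads were assigned between species is not given in the sources used here. Only mouse rows were analysed, with library sizes over these rows (7.70 to 118 M counts).

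Counts were filtered with filterByExpr by arm, scaled with TMM and fitted in edgeR 4.0.16 (R 4.3.3) with the quasi-likelihood test and a 24 h cosine and sine per arm. The arm difference was tested over 14977 genes with Benjamini-Hochberg adjustment at 0.05. The SE is the fitted difference divided by the square root of F. The fit was run on simulated counts with known changes in a small set of genes, balanced up and down. Far more genes differed in the livers, so the simulation cannot test the choice of scaling. DESeq2 1.42.0, limma 3.58.1, other scalings, filters and time terms, a replicate block, thinning and leaving out livers or times were alternatives.

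Members and the 66 gene lists were chosen with earlier results of these data known, and symbols matched by mistake were removed after values were seen. Ambp, Cp, Apoe, Wfdc21 and Car3 were left out of the reduced sums with their values known. Higher members that hepatocytes can also make, such as Lcn2, were kept, so the reduced sums lean to one side. The text names the 10 largest and 10 most abundant differences per direction (more than 2-fold, no overlap between arms, for the largest a mean of at least 10 CPM in the higher arm), in each list the most abundant, highest and lowest members, and Fah, Rag2 and Il2rg. Of 166 named genes, 15 fall outside this rule and are marked in the text. A few genes that the rule names are not reported here. Muscle, arcuate and suprachiasmatic counts of Mu mice served only to divide the genes. Gene names follow GENCODE M21. Promoters are RefSeq sequences of GRCm38.p6.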

Additional observations from a re-analysis of the deposited data

Results flagged for a closer look

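The human rows of the liver table, which the comparison of mouse genes does not use, carried a median of 58.7% of all counts in Hu livers, far above the 0.00592 to 0.0204% in Mu livers. The labels state a selection for more than 70% human repopulation, a measure with another denominator, so the values are given side by side only.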

How the results depend on the processing

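The number of genes that differed between arms stayed within 1.5 times of 11907 under all alternatives run (9790 after thinning to the smallest mouse total to 13051 with no filter, and 10532 with a stricter one). It was 12092 with DESeq2 and 11848 with limma-voom. Leaving out 1 liver gave 11692 to 11922 and leaving out 1 time point 11116 to 11471. Scaling moved the direction. With the plain total of mouse rows, 10876 genes were higher and 1938 lower, 6040 and 710 by more than 2-fold, and 3925 and 550 without overlap. With the total of all rows, 2494 were higher and 8978 lower, 1262 and 5128 by more than 2-fold, and 72 were higher without overlap. With the plain total of mouse rows, Ftl1 (0.16) and Hspa5 (0.29) reversed. With the total of all rows, Serpina3i (-0.11), Stab2 (-0.23), Ddx3y (-0.16), Kdm5d (-0.38) and Uty (-0.16) did. The cause of these changes was not tested beyond the shift of the median of all genes.

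Replicate numbers are shared between arms, but nothing in the labels ties them to a shared animal or day. Over 12 pairs with the same number and time, deviations from the mean of each arm at each time correlated by 0.0129 to 0.313, over 0.1 in 7. At ZT 10, 14 and 22, with 2 livers in each arm, both pairs give the same value by construction. The 12 values are therefore not all separate. With the replicate number as a block 11519 genes were called, and with matched pairs 11231. Hu livers had 7.70 to 87.9 M mouse counts, so the lowest levels are less precise there than in Mu livers.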
